A study of Mus musculus with 12 samples.

Results

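The neuronal nicotinic acetylcholine receptor subunits described here are the products of 9 mouse genes, Chrna3, Chrna4, Chrna5, Chrna6, Chrna7, Chrna10, Chrnb2, Chrnb3 and Chrnb4. They were picked by name, with the iKO effect on Chrna6 and Chrna7 already known, and each was found among the 55416 gene identifiers of the count tables. Of the 9, 8 passed the filter on low counts and stood among the 16637 genes fitted, and Chrna5 did not pass. RNA-seq of poly(A) RNA was made from trigeminal ganglia, where the somata of the neurons for facial touch, temperature and pain lie, of adult C57Bl6 mice of both sexes, 1 month after injection. The 6 iKO libraries came from mice that carried Rosa26Cre ERT2 and Prdm12 Fl/Fl and received tamoxifen, and 3 were labelled female and 3 male. Prdm12 encodes a zinc finger regulator of transcription that is needed for nociceptor development. The 6 control libraries, 2 female and 4 male, were of mixed genotype. Control 1 was Rosa26Cre ERT2; Fl/+, control 2 and 3 were +/+; Fl/+ and control 4 was Rosa26Cre ERT2; +/+, all given tamoxifen. Control 5 and 6 were Rosa26Cre ERT2; Fl/Fl, as the iKO mice were, and received corn oil in place of tamoxifen. The Rosa26 locus is active in nearly all cell types, so the recombinase is not limited to neurons, and the libraries come from dissected ganglia that were not sorted into cell types.

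Nicotinic receptors are cation channels that open when acetylcholine binds, and each is a pentameric ring of subunits. The alpha7 subunit can form a ring on its own. The alpha2, alpha3, alpha4 and alpha6 subunits join with beta2 or beta4, while alpha5 and beta3 are accessory subunits that do not form the binding site by themselves, and alpha10 joins alpha9 in the hair cells of the inner ear. Sensory neurons carry several of these receptors, and receptors with alpha6 in dorsal root ganglia have been linked to the control of mechanical pain.

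The libraries held 13207526 to 24178970 counts assigned to genes, so 3 counts, the limit that a count of 0 allows, equal 0.124 to 0.227 CPM (counts scaled to library size). Prdm12 itself had 13.2, 16.9 and 19.1 CPM (lowest, median, highest) in the iKO ganglia and 56.8, 118 and 133 CPM in the controls. Control 6 had the lowest Prdm12 level of the controls, and the groups did not overlap. Control 6 also had the highest summed level of 8 central nervous system markers, 1051 CPM. This sum was higher in controls generally, at 427, 649 and 1051 CPM (lowest, median, highest) against 356, 475 and 596 CPM in iKO libraries. The control median thus lay above the highest iKO library. Skeletal muscle markers summed to 803 CPM in iKO 5, the highest of all libraries, and pituitary markers to 2794 CPM in iKO 3, while no control exceeded 183 and 683 CPM. The part of such tissue in the subunit values was not tested, and values without one of these libraries are given beside Chrnb3, Chrnb4 and Chrna10. In whole ganglia, fewer cells of a type and less RNA per cell cannot be told apart.

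Per kilobase of exon, Chrna6 gave the most abundant of the 9 transcripts in both groups, and it made up a larger part of them in the iKO ganglia. Its level was 31.2 ± 1.40 CPM per kb in iKO and 16.7 ± 0.994 CPM per kb in control ganglia (SD, n = 6 each, as for all levels below). Chrnb2 followed with 13.4 ± 0.947 CPM per kb in iKO and 13.2 ± 1.09 CPM per kb in control ganglia. The order of these 2 genes rests on the exon lengths used, 2.91 kb for Chrna6 and 8.38 kb for Chrnb2. In CPM, without division by length, Chrnb2 was above Chrna6, at 112 against 90.7 in iKO and 111 against 48.4 in control ganglia. Chrna7 had 8.90 ± 0.912 CPM per kb in iKO ganglia, below Chrnb2 by more than the spread. In control ganglia it had 12.8 ± 0.955 CPM per kb and did not differ from Chrnb2 beyond the spread. Chrnb3 came next at 4.22 ± 0.422 CPM per kb in iKO and 3.07 ± 0.285 CPM per kb in control ganglia. Far below stood Chrna3 at 1.07 ± 0.208 CPM per kb in iKO and 1.44 ± 0.269 CPM per kb in control ganglia, and Chrnb4 at 0.560 ± 0.136 CPM per kb in iKO and 1.20 ± 0.400 CPM per kb in control ganglia. In control ganglia the group means of Chrna3 and Chrnb4 did not differ beyond their spread. Within control libraries the ratio of Chrna3 to Chrnb4 per kb ran from 1.01 to 2.50. Chrna4, Chrna5 and Chrna10 were the 3 lowest in each group, with means of 0.156 to 0.338 CPM per kb in iKO and 0.167 to 0.511 CPM per kb in control ganglia, and Chrna10 and Chrna5 in iKO ganglia lay within each other's spread.

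Expressed as a share of the summed CPM per kb of the 9 genes, Chrna6 made up 52.0 ± 1.52% (50.3 to 53.9%) in iKO and 33.8 ± 1.99% (31.3 to 37.3%) in control ganglia. Chrna7 made up 14.8 ± 0.933% in iKO and 25.9 ± 0.811% in control ganglia. The groups did not overlap in either share. Chrnb2 held 22.3 ± 0.968% in iKO and 26.7 ± 1.63% in control ganglia, although its own level was alike in both, since the shares sum to 100%. The summed level of the 9 genes was 60.0 ± 2.76 CPM per kb in iKO and 49.4 ± 2.47 CPM per kb in control ganglia. These are descriptions of the contrast by which the genes were proposed, so no test is attached to them.

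**Figure D1:**
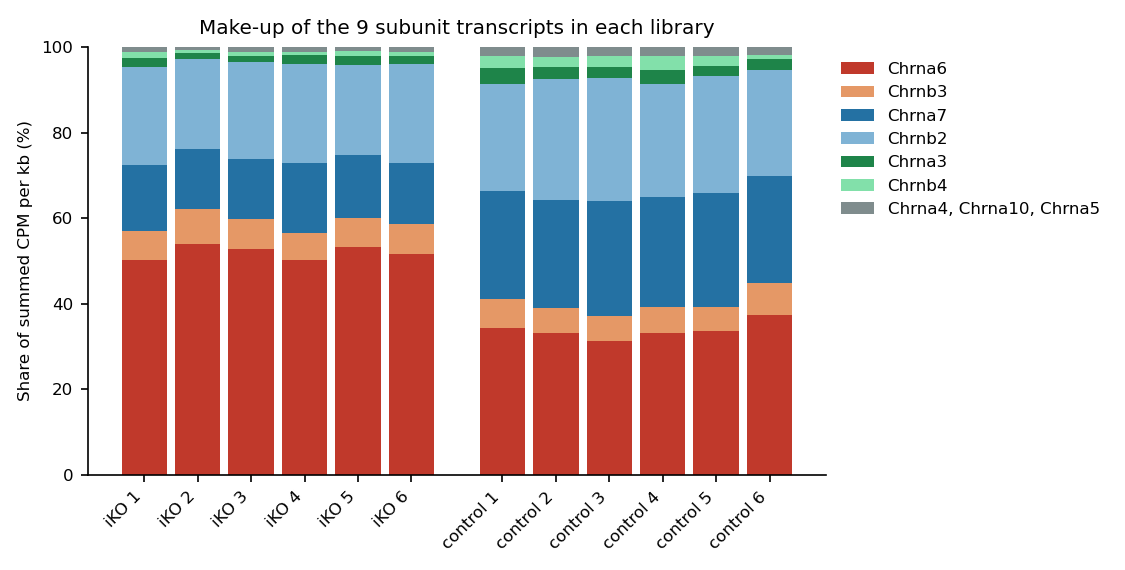
Make-up of the 9 subunit transcripts in each library, as each gene's share (%) of the summed CPM per kb, with the 6 iKO libraries left and the 6 control libraries right. The Chrna6 segment spans 50.3 to 53.9% in iKO and 31.3 to 37.3% in control libraries, and the Chrna7 segment is smaller in each iKO library than in any control library.

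Against controls, 3 of the 8 subunit genes fitted were past an adjusted p of 0.05 in edgeR's quasi-likelihood test over all genes: Chrna6 and Chrnb3 were higher and Chrna7 was lower in iKO ganglia. The same test called 0.379% of all genes tested, 0.174% higher and 0.204% lower. The same 3 genes were those whose iKO and control libraries did not overlap in CPM, as was the case for 1.2% of all genes, 0.679% with iKO above and 0.523% with iKO below. Since this contrast chose the genes, nothing is read from these counts. The log2 fold change of the 8 had a median of -0.46, beside 0.00114 over all genes, where the median absolute value was 0.0807. It lay below 0 for 5 of the 8, beside 49.5% of all genes. Among the 5 is Chrna10, which passed the filter mostly through control libraries, where it was higher, so nothing is read from its sign. Chrna10 also enters the median of -0.46.

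Chrna6 (ENSMUSG00000031491) encodes the alpha6 subunit, an agonist-binding subunit best known from dopamine neurons of the midbrain and from the retina. It had 85.8, 91.2 and 95.1 CPM (lowest, median, highest) in iKO and 44.2, 49.4 and 51.1 CPM in control ganglia. The groups lay far apart, and within each group the libraries were close together, with a coefficient of variation of 4.50% in iKO and 5.97% in control ganglia. The mean was 90.7 ± 4.08 CPM in iKO and 48.4 ± 2.89 CPM in control ganglia, 187% of the control level, a log2 fold change of 0.91 ± 0.049 (SE). It was past the threshold in 23 of 23 alternative fits.

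Chrnb3 (ENSMUSG00000031492), which encodes the accessory beta3 subunit often found with alpha6, is the nearest protein-coding neighbour of Chrna6 in the reference annotation. It had 25.1, 25.8 and 32.2 CPM in iKO and 17.3, 19.3 and 22.3 CPM in control ganglia. iKO 2 was the high iKO library and control 6 the high control, and the groups did not overlap. The mean was 26.9 ± 2.69 CPM in iKO and 19.5 ± 1.82 CPM in control ganglia, a log2 fold change of 0.45 ± 0.081 (SE). Its call held in 2 of the 12 fits with 1 library left out, those without iKO 2 or without control 6, and was lost without any other single library, over log2 fold changes of 0.39 to 0.49. The ratio of Chrna6 to Chrnb3 per kb was 7.44 ± 0.549 (6.44 to 8.02) in iKO and 5.46 ± 0.341 (5.02 to 6.00) in control ganglia, so the pair was higher by unequal amounts.

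Chrna7 (ENSMUSG00000030525) encodes the alpha7 subunit of the homomeric receptor with high calcium permeability. It had 36.9, 38.3 and 48.0 CPM in iKO and 52.6, 58.0 and 62.8 CPM in control ganglia. iKO 4 was the high iKO library at 48.0 CPM, still under the lowest control, so the groups did not overlap. The mean was 40.1 ± 4.11 CPM in iKO and 57.6 ± 4.30 CPM in control ganglia, 69.6% of the control level, a log2 fold change of -0.51 ± 0.067 (SE). The ratio of Chrna6 to Chrna7 per kb was 3.53 ± 0.301 (3.07 to 3.84) in iKO and 1.31 ± 0.110 (1.16 to 1.49) in control ganglia.

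**Figure D2:**
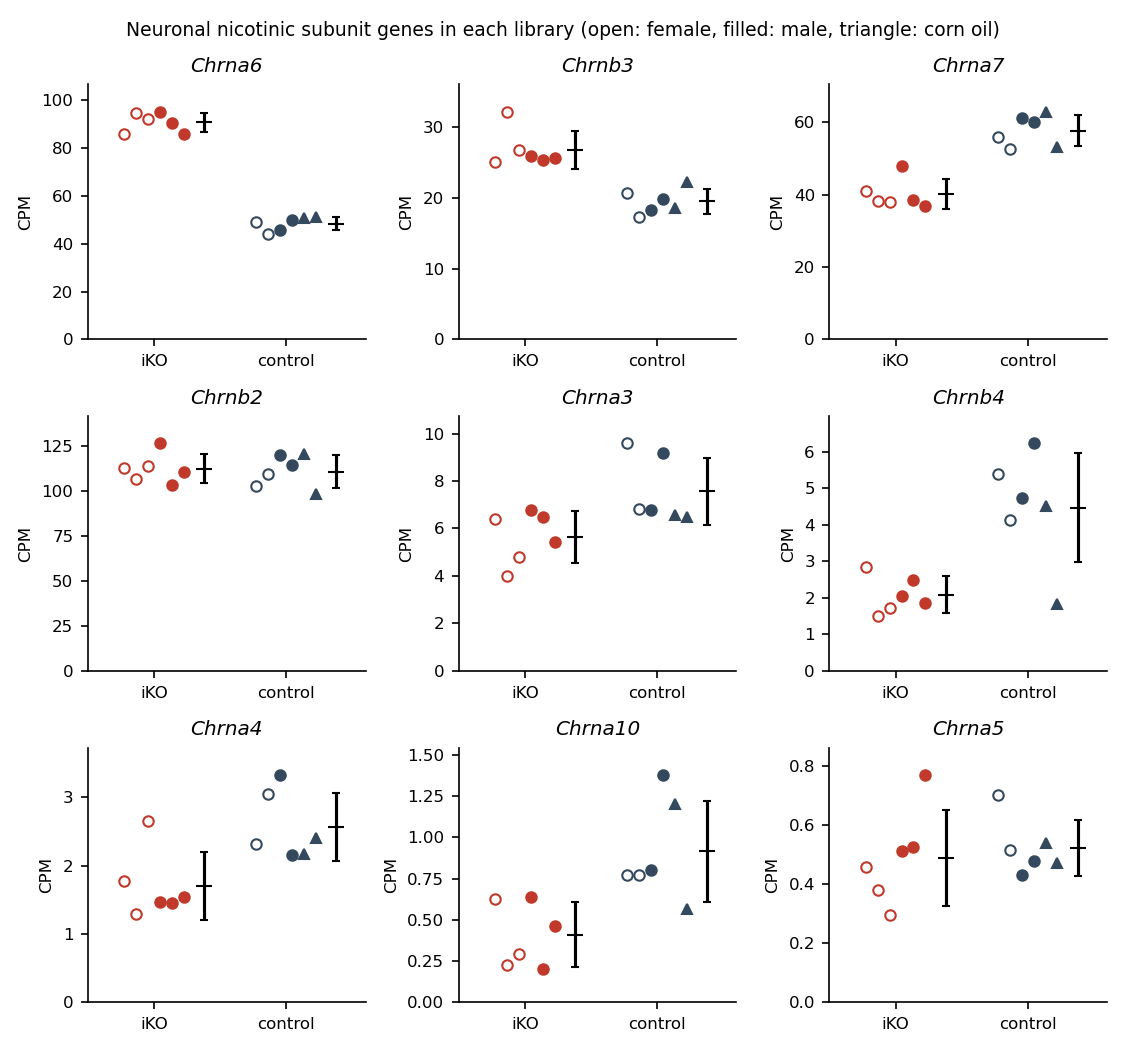
CPM of each subunit gene in each library, with iKO left and control right in each panel, 1 point per library (open, female; filled, male; triangle, corn oil) and the mean with its SD. The groups do not overlap for Chrna6, Chrnb3 and Chrna7, and control 6 is the single control at the iKO level for Chrnb4, at 1.83 CPM.

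Chrna3 (ENSMUSG00000032303) and Chrnb4 (ENSMUSG00000035200) encode the alpha3 and beta4 subunits, which together form the main receptor of autonomic ganglia, and in the reference annotation they lie beside each other with Chrna5 as the third gene of the cluster. The sequences just upstream of the starts of this neighbouring pair, and of Chrna7 and Chrnb2, are shown because these 2 pairs had the lowest unadjusted p among the correlations between libraries, none of which passed adjustment. They are the 150 bases before the start of the gene in RefSeq on GRCm38.p6, on the strand of the gene, 5′ to 3′, and capitals mark GGGCGG, the core of a GC box to which Sp1 binds, or its reverse complement CCGCCC. Chrna3 lies at chr9:55026563-55026712, Chrnb4 at chr9:55048545-55048694, Chrna7 at chr7:63212527-63212676 and Chrnb2 at chr3:89764633-89764782, all on the minus strand.
Chrna3: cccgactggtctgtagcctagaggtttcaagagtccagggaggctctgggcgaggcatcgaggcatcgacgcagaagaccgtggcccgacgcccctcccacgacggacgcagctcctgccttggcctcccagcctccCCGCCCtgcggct
Chrnb4: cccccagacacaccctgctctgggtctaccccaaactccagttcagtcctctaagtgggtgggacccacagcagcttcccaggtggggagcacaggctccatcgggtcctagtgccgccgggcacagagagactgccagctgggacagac
Chrna7: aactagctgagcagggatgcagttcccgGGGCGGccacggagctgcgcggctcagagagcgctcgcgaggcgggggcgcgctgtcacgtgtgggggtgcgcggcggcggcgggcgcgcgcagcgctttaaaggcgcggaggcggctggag
Chrnb2: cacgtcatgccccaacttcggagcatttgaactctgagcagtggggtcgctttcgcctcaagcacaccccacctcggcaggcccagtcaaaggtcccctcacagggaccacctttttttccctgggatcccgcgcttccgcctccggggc
The 6 letters of GGGCGG were found once each, on either strand, in the windows of Chrna3 and Chrna7 and not in those of Chrnb4 and Chrnb2. An E-box, CANNTG, which reads the same on either strand, was found at 2 places in the window of Chrnb4, at 1 place each in those of Chrna7 and Chrnb2, and not in that of Chrna3. Of 32851 promoters of the same length, 28.6% held GGGCGG and 47.7% held CANNTG. The table of promoters held 7 of the 9 genes. A match is a run of letters and not a site of binding.

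Both genes of the pair were low and variable. Chrnb4 had 1.52, 1.95 and 2.86 CPM (lowest, median, highest) in iKO and 1.83, 4.63 and 6.23 CPM in control ganglia. Control 6 at 1.83 CPM was the only control within the iKO range, and the other 5 controls had 4.12 to 6.23 CPM. The mean was 2.08 ± 0.506 CPM in iKO and 4.47 ± 1.49 CPM in control ganglia, a log2 fold change of -1.09 ± 0.263 (SE) that was not past the threshold. Without control 6 it was -1.24 and past the threshold.

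Chrna3 had 4.01, 5.92 and 6.78 CPM in iKO and 6.49, 6.79 and 9.59 CPM in control ganglia. The groups overlapped, with 4 of 6 iKO libraries below every control and 2 controls, control 1 and control 4, standing above the rest. The mean was 5.66 ± 1.10 CPM in iKO and 7.56 ± 1.42 CPM in control ganglia, a log2 fold change of -0.41 ± 0.156 (SE), not past the threshold. The ratio of Chrna3 to Chrnb4 per kb was 1.95 ± 0.255 in iKO and 1.33 ± 0.580 in control ganglia. It reached 2.50 in control 6 and stood between 1.01 and 1.26 in the other controls. Chrna5 (ENSMUSG00000035594), the accessory subunit of the cluster, had 56 counts over the 6 iKO libraries and 54 over the 6 control libraries, and its groups overlapped at 0.490 ± 0.162 CPM in iKO and 0.523 ± 0.0946 CPM in control ganglia.

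Chrnb2, the beta2 subunit that joins alpha4 in the most common receptor of the brain, had 103, 112 and 126 CPM in iKO and 98.1, 112 and 120 CPM in control ganglia. The groups overlapped over almost their whole range. Its log2 fold change was 0.03 ± 0.062 (SE), and 2 standard errors on either side span -0.09 to 0.16. Exons of Adar, which encodes an RNA-editing enzyme, overlap Chrnb2 on the opposite strand, and without strand in the libraries the reads of the overlap cannot be told apart. Adar had 64.6 ± 3.00 CPM in iKO and 68.5 ± 7.58 CPM in control ganglia.

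Chrna4, the partner of beta2, was much lower than Chrnb2 per kb. It had 1.29, 1.51 and 2.66 CPM in iKO and 2.16, 2.35 and 3.33 CPM in control ganglia. All iKO libraries but iKO 3, at 2.66 CPM, lay below every control. The log2 fold change was -0.63 ± 0.194 (SE), with means of 1.70 ± 0.496 CPM in iKO and 2.57 ± 0.496 CPM in control ganglia, and it was not past the threshold.

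Chrna10, whose product joins alpha9 in hair cells, had only 45 counts over the iKO and 94 over the control libraries. Its levels were 0.202, 0.379 and 0.640 CPM in iKO and 0.564, 0.787 and 1.38 CPM in control ganglia. The groups overlapped at iKO 1, iKO 4 and control 6. Chrna10 passed the filter on low counts mostly through control libraries, so the sign of its fold change is tied to the filter. The log2 fold change of -1.12 ± 0.335 (SE) was not past the threshold. It was -0.90 without iKO 5 and ran from -1.31 to -0.90 over the fits with 1 library left out. Chrna10 overlaps exons of Art1 on the opposite strand, and Art1, which encodes an ADP-ribosyltransferase, had 1.27 ± 1.71 CPM in iKO and 0.465 ± 0.429 CPM in control ganglia. The iKO mean of Art1 rests on iKO 5, at 4.64 CPM, and was 0.590 ± 0.472 CPM over the other 5 libraries. Its usual partner Chrna9 had 7 counts in the iKO and 6 in the control libraries, at or under the limit that a count of 0 allows in each.

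The other nicotinic subunits were low or at 0. Of the muscle subunits, Chrna1 had 1.76 ± 0.330 CPM in iKO and 1.53 ± 0.607 CPM in control ganglia, and Chrnb1 had 4.50 ± 0.482 CPM in iKO and 4.24 ± 0.394 CPM in control ganglia. Neither was past the threshold, with edgeR adjusted p of 0.754 and 0.829. Over 6 libraries each, Chrnd and Chrng had 1 count in iKO and at most 1 in control ganglia, Chrne had 21 in iKO and 18 in control ganglia, and Chrna2 had 1 in iKO and 6 in control ganglia.

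The effect of iKO was also fitted in subsets of the libraries. These effects are parts of the contrast that chose the genes, and only the difference between subsets did not choose them. In replicates 1 to 4, where all mice received tamoxifen, the log2 fold change of Chrna6 was 0.98 ± 0.058 (SE). In replicates 5 and 6, where the genotype was the same and the agent differed, it was 0.79 ± 0.078. The difference of these effects was -0.19 ± 0.097, with 2 standard errors reaching from -0.38 to 0.00. For Chrna7 the effects were -0.42 ± 0.065 in replicates 1 to 4 and -0.62 ± 0.088 in replicates 5 and 6, a difference of -0.20 ± 0.110. For Chrnb4 they were -1.28 ± 0.307 in replicates 1 to 4 and -0.52 ± 0.413 in replicates 5 and 6, where the pair of controls includes control 6, and the difference of 0.76 ± 0.515 spans -0.27 to 1.79. By edgeR's quasi-likelihood test none of the 8 genes was past an adjusted p of 0.05 or an unadjusted p of 0.05 in this difference, and none by DESeq2 or limma-voom at the adjusted threshold. Over all genes edgeR called 0.0%, with 568 genes at an unadjusted p under 0.05, and DESeq2 called 5 genes. Without iKO 6 edgeR called 15 genes, all higher, and without a filter on low counts 476 higher and 102 lower, with no subunit among them. In simulated data edgeR recovered 44% of 2-fold and 9% of 1.5-fold differences between the replicate sets. The lack of a call therefore does not show equal effects.

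In females the log2 fold change was 0.97 ± 0.079 for Chrna6, 0.56 ± 0.126 for Chrnb3 and -0.47 ± 0.107 for Chrna7. In males it was 0.87 ± 0.063 for Chrna6, 0.37 ± 0.103 for Chrnb3 and -0.53 ± 0.091 for Chrna7. Among the 8 genes the widest gap by its own standard error was that of Chrna3, -0.68 ± 0.232 in females and -0.22 ± 0.195 in males, and the difference of 0.47 ± 0.303 spans -0.14 to 1.07. None of the 8 differed between the sexes in the iKO effect by edgeR at the adjusted or unadjusted threshold, or by DESeq2 or limma-voom at the adjusted one, beside 0.0% of all genes by edgeR, with 318 genes at an unadjusted p under 0.05. Nor was any of the 8 past either threshold between males and females over both groups, where edgeR called 0.108% of all genes and the smallest adjusted p among the subunits was 0.614, for Chrna7. In simulated data edgeR recovered 47% of 2-fold and 9% of 1.5-fold differences of the iKO effect between the sexes. The lack of a call there does not show equal effects.

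Control 5 and 6 were also compared with control 1 to 4. Chrnb4 had a log2 difference of -0.77 ± 0.387 (SE), edgeR adjusted p = 0.667, with levels of 4.51 CPM in control 5 and 1.83 CPM in control 6 against 4.12 to 6.23 CPM in control 1 to 4. Chrna6 differed by 0.09 ± 0.074 and Chrnb3 by 0.13 ± 0.131. None of the 8 genes was past the adjusted threshold by edgeR, DESeq2 or limma-voom or the unadjusted one by edgeR, and edgeR called 0.0% of all genes, with 1312 genes at an unadjusted p under 0.05 and 3 called by DESeq2. Without control 5 edgeR called 118 genes higher and 2 lower, and without a filter on low counts 895 higher and 241 lower, with no subunit among them. In this comparison the agent and the genotype differ together and cannot be told apart.

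**Figure D3:**
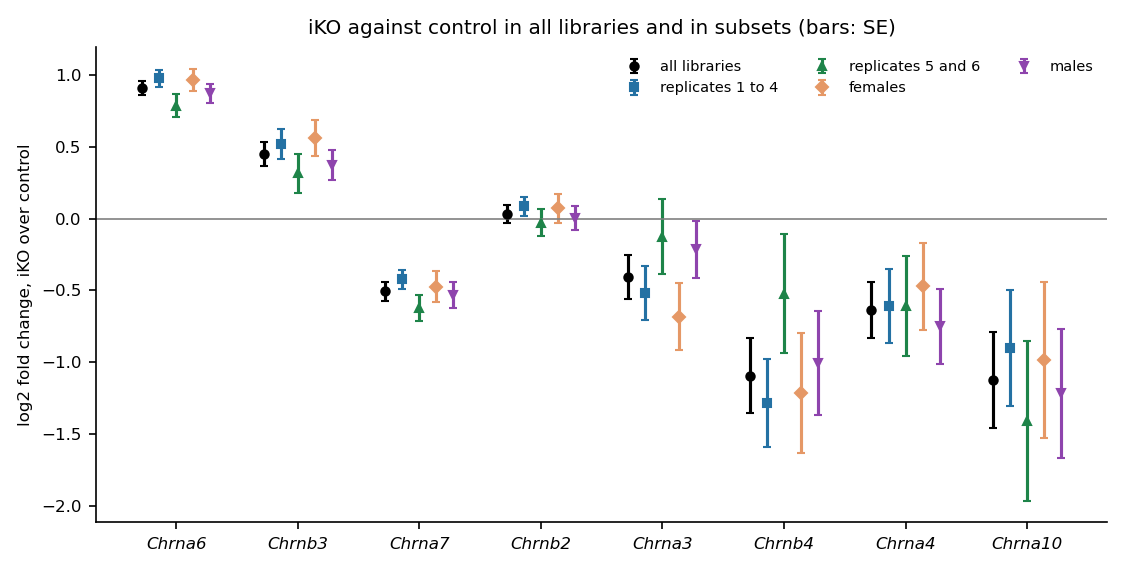
Log2 fold change, iKO over control, of the 8 subunit genes fitted, in all libraries and in replicates 1 to 4, replicates 5 and 6, females and males, with bars for the SE. Chrna6 and Chrnb3 lie above 0 and Chrna7 below 0 in each subset, which follows from groups that do not overlap in CPM. The bars are longest for Chrna10 and Chrnb4.

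Which subunits varied together among libraries was asked after the mean of each group had been removed, so that the iKO effect itself did not enter. The 7 genes that averaged 1 CPM or more give 21 pairs over 12 libraries. None passed Benjamini-Hochberg adjustment over the 21 pairs, and 3 had an unadjusted p under 0.05 in the permutation test within groups, two-sided. Of the pairs, 9 had a Pearson r above 0 and 12 below it, and the median r was -0.04.

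Chrna7 and Chrnb2 had the highest Pearson r, 0.82 (permutation p = 0.00428, adjusted 0.0899), with Spearman's rho of 0.69 (permutation p = 0.0239, adjusted 0.200). Without the 2 libraries farthest from the median of Chrna7, the first gene of the pair, r was 0.65. Libraries that were far out only in the second gene stayed in, here and below. Chrna3 and Chrnb4, the neighbouring pair whose upstream sequences are printed above, had an r of 0.66 (permutation p = 0.0140, adjusted 0.147) and a rho of 0.78 (permutation p = 0.00548, adjusted 0.115). Their r was 0.54 without the 2 libraries farthest in Chrna3. Chrna6 and Chrnb3, the other neighbours, had an r of 0.66 (permutation p = 0.0259, adjusted 0.181) and a rho of 0.69 (permutation p = 0.0286, adjusted 0.200). Their r was 0.52 without the 2 libraries farthest in Chrna6. Chrna6 and Chrna7, which were higher and lower in iKO ganglia, had an r of 0.33 within groups. The libraries share depth and the make-up of their ganglia, and these were not tested as sources of the relations.

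**Figure D4:**
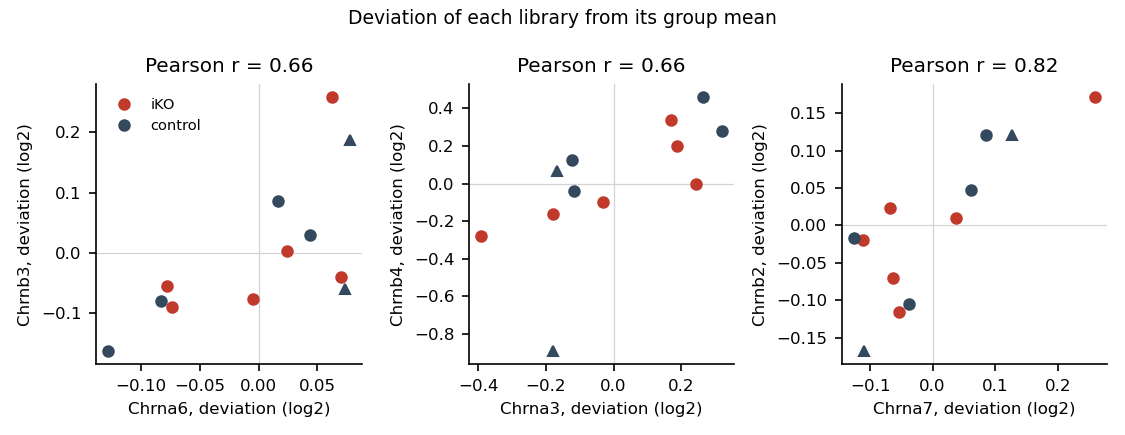
Deviation of each library from its group mean, in log2(CPM + 1), for 3 pairs of subunit genes, 1 point per library (triangle, corn oil). The points run upward in each panel, with Pearson r of 0.82 for Chrna7 and Chrnb2 and 0.66 for each of the other 2 pairs.

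Genes of nicotinic receptor assembly and of acetylcholine handling gave no calls. Of 14 chaperones and Ly6 modulators 11 were tested, none was past the threshold by edgeR, DESeq2 or limma-voom, and the median log2 fold change was -0.00296. The smallest p was that of Ric3, a chaperone that helps alpha7 to reach the membrane, at 141 ± 10.8 CPM in iKO and 127 ± 9.07 CPM in control ganglia, a difference of 0.13 on the log2 scale (edgeR adjusted p = 0.410, unadjusted p = 0.0343, the single gene of the list with an unadjusted p under 0.05). Ly6h, which encodes a Ly6 protein that lowers alpha7 currents, had a log2 ratio of iKO over control of -0.17 (edgeR adjusted p = 0.572).

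Of 9 genes for the synthesis, transport and breakdown of acetylcholine 7 were tested, and none was past the threshold by the 3 tools. Chat, the enzyme that makes acetylcholine, and Slc18a3, its vesicular transporter, were too low to be tested, at 0.0318 and 0.0691 CPM in iKO and 0.0200 and 0.0103 CPM in control ganglia. Slc5a7, the choline transporter, had 1.71 ± 0.542 CPM in iKO and 1.17 ± 0.414 CPM in control ganglia (log2 fold change 0.59, edgeR adjusted p = 0.437), and Slc44a4, a choline transporter-like gene, had 2.58 ± 3.78 CPM in iKO and 1.01 ± 1.36 CPM in control ganglia (log2 fold change 1.56, edgeR adjusted p = 0.479). Its iKO mean rests on iKO 6, at 10.2 CPM, and was 1.05 ± 0.635 CPM over the other 5 libraries. Only Slc5a7 had an unadjusted p under 0.05 there.

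Of the muscarinic receptor genes, the G protein-coupled acetylcholine receptors, 4 of 5 were tested and none was past the threshold by the 3 tools. Chrm4 had a log2 ratio of iKO over control of -0.45 (edgeR adjusted p = 0.398, 1 of 4 with an unadjusted p under 0.05) and Chrm1 of -0.52 (edgeR adjusted p = 0.464). Among 6 partners of the receptor at the muscle endplate none was past the adjusted threshold by the 3 tools or the unadjusted one by edgeR. Rapsn had a log2 ratio of iKO over control of 0.16 (edgeR adjusted p = 0.629) and Dok7 of -0.12 (edgeR adjusted p = 0.739).

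Of 23 subunits of the other Cys-loop channels, which share the pentameric fold, 17 were tested, none rose and 1 fell. An unadjusted p under 0.05 by edgeR was reached by 5 of the 17. Htr3a, the serotonin-gated cation channel subunit, had 125 ± 15.7 CPM in iKO and 168 ± 13.8 CPM in control ganglia, a difference of -0.40 ± 0.070 on the log2 scale (edgeR adjusted p = 0.0301). Its call was lost in 10 of 12 fits with 1 library left out, over -0.47 to -0.36, and held without iKO 4 or without control 6. The list's median log2 fold change was 0.04, beside 0.00114 over all genes.

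Of 8 transcription factors known to act on nicotinic genes 5 were tested, and none was past the adjusted threshold by the 3 tools or the unadjusted one by edgeR. Egr1 had a log2 ratio of iKO over control of -0.47 (edgeR adjusted p = 0.661) and Sp3 of -0.07 (edgeR adjusted p = 0.743). The 3 nearest protein-coding genes on each side of the subunit genes gave 36 neighbours that are not subunits, of which 26 were tested. None was past the threshold by the 3 tools and 1 had an unadjusted p under 0.05 by edgeR, with log2 fold changes from -0.44 to 0.47 and a median of 0.02.

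**Figure D5:**
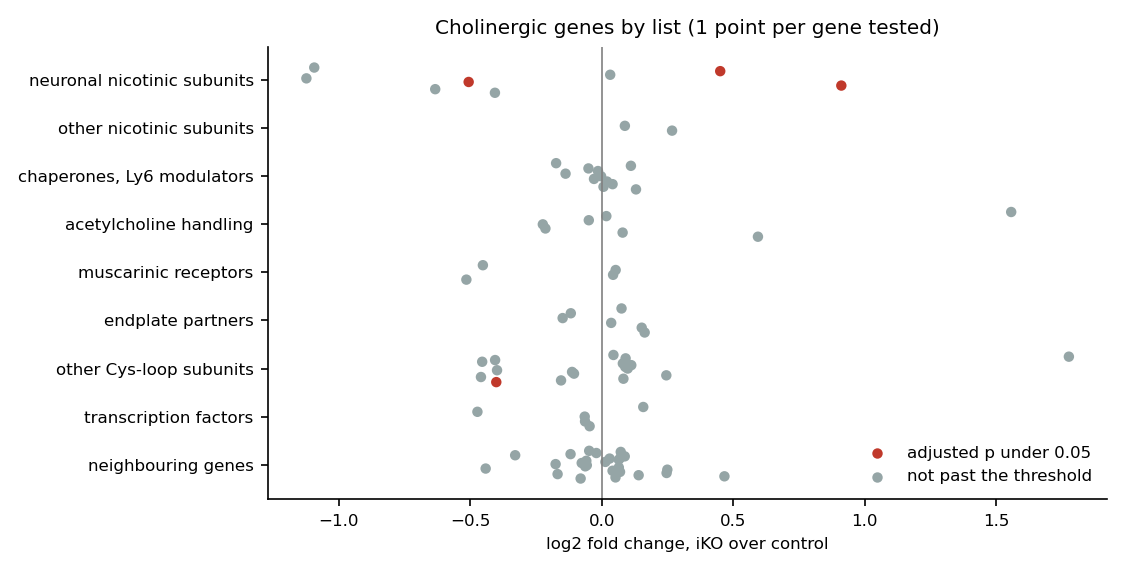
Log2 fold change, iKO over control, of each gene tested in the lists of cholinergic genes, 1 point per gene, with genes at an adjusted p under 0.05 in red. The subunit genes run from -1.12 to 0.91, and outside them Htr3a at -0.40 is the single red point.

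The genes most like Chrna6 over the 12 libraries, out of 12131 that averaged 5 CPM or more, were Tagln3, Stk32a and Calcb, with Pearson r of 0.96, 0.95 and 0.94. The lowest r were those of Prdm12, Creg2 and Insrr, at -0.97, -0.97 and -0.96. These values carry the difference between the groups. With the group means removed they were 0.41, 0.03 and 0.48 for the first 3 and -0.31, -0.50 and -0.44 for the others. For Chrna7 the highest were Grik1, a kainate receptor subunit, Gm13425 and Wnt2b, at 0.97, 0.96 and 0.95, and with the group means removed at 0.79, 0.74 and 0.74. The lowest for Chrna7 were Ccnyl1 and Lgalsl, at -0.92 and -0.89, or -0.67 and -0.75 with the group means removed, and Chrna6 itself at -0.89, or 0.33 with the group means removed. The likeness is given as a description, chosen as the extreme of many genes, with no test.

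Markers of the cells that could carry the subunits were set beside these values. The 10 general sensory neuron markers summed to 7871 to 9737 CPM in iKO and 7500 to 9514 CPM in control ganglia, and none was past the threshold by edgeR, DESeq2 or limma-voom, with 1 at an unadjusted p under 0.05 by edgeR and a median log2 fold change of -0.01. Of the 5 peptidergic nociceptor markers 1 rose and 1 fell by edgeR, all 5 had an unadjusted p under 0.05, 3 had a log2 fold change below 0, and the median was -0.21. Calca, which encodes the main form of CGRP in sensory neurons, had 655 ± 58.7 CPM in iKO and 780 ± 46.4 CPM in control ganglia and was called lower by DESeq2 but not by edgeR (log2 fold change -0.23, edgeR adjusted p = 0.0920). The one that rose was Calcb, which encodes another form of CGRP, at 89.6 ± 9.55 CPM in iKO and 58.6 ± 4.93 CPM in control ganglia (log2 fold change 0.63, edgeR adjusted p = 0.00166). Of 6 myelinating Schwann cell markers 1 rose, Pmp22, by 0.36 on the log2 scale (edgeR adjusted p = 0.0180), a call lost without iKO 1, iKO 5 or control 2, and held without any other single library, over 0.33 to 0.40.

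Among cold neuron and C-low-threshold mechanoreceptor markers none of 3 was past the adjusted threshold by edgeR, DESeq2 or limma-voom and all 3 had an unadjusted p under 0.05 by edgeR. Trpm8, the cold channel, had 99.1 ± 28.4 CPM in iKO and 159 ± 32.8 CPM in control ganglia (log2 fold change -0.68, edgeR adjusted p = 0.173). Of the autonomic neuron markers, which would bear on Chrna3 and Chrnb4, Th was the only one of 8 high enough to be tested, at 9.19 ± 1.08 CPM in iKO and 10.6 ± 1.13 CPM in control ganglia (edgeR adjusted p = 0.458). The markers of central nervous system, whose sum was highest in control 6, had a median log2 fold change of -0.39, and those of skeletal muscle, whose sum was highest in iKO 5, of 1.30. edgeR called none of the tested markers of these tissues, of nonpeptidergic nociceptors, myelinated sensory neurons, satellite glia, fibroblasts, macrophages or pituitary. An unadjusted p under 0.05 was reached by 2 central nervous system, 2 muscle, 1 nonpeptidergic, 1 myelinated neuron, 3 fibroblast and 2 macrophage markers, and DESeq2 called Camk2a, Ptgds and Dcn lower and Ntrk3 higher. The part of these cell types in the subunit values was not tested.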

How the data were processed

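Per the labels' protocols, poly(A) RNA of whole trigeminal ganglia was extracted with TRIzol and made into non-stranded libraries with a TruSeq kit. Per the submitters' processing notes, bcl2fastq 2.20.0.422, STAR 2.7.8a, featureCounts 2.0.1 and the build GRCm39 were used; the annotation release is not given in the sources used here. The deposited values are raw counts per Ensembl gene, 1 table per library. From them, 52083 of 55416 identifiers were matched to symbols and exon-union lengths of a GRCm38 annotation, used for names, lengths and neighbours only, and 1 of 159 list entries was not matched.

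Genes were filtered with filterByExpr, scaled by TMM (factors 0.969 to 1.02) and fitted in edgeR 4.0.16 (R 4.3.3) with group and sex as terms, by the quasi-likelihood test with Benjamini-Hochberg adjustment over 16637 genes and a threshold of 0.05. CPM are TMM-normalised. Correlations used log2(CPM + 1) and 100000 permutations within groups. Alternatives used DESeq2 1.42.0, limma 3.58.1, other scalings and filters, and subsets of animals. The fits were tested on simulated data, where the iKO contrast recovered 84% of 2-fold and 66% of 1.5-fold changes. The comparison of control sets recovered 64% and 27%. Between replicates of a group counts differed by more than sampling noise, with chi-square per degree of freedom of 7.62 to 29.4. The labels do not say how many animals gave a library, so p-values measure the spread between these libraries. The standard errors of the fits, and the spans built on them, include that spread too. Limits from counts cover counting error only.

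The subunit genes and all lists were chosen with earlier results of these data known. Of each list of cholinergic and related receptor genes, the genes past the threshold or otherwise the 2 with the smallest p are named; neighbours are named only past the threshold; marker lists are given by counts, with examples chosen after their values were seen; and for Chrna6 and Chrna7 the 3 genes at either end of the correlation. 1 marker past the threshold is not reported here.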

Additional observations from a re-analysis of the deposited data

Results flagged for a closer look

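Among 20 groups of 6 libraries examined, 3 had a library far from the others, its gap to the nearest one divided by the group's range being above Dixon's critical value of 0.625; chance flags about 1 in 20 groups. For Chrnb3 this was iKO 2, highest of the iKO libraries at 32.2 CPM (gap over range 0.755). For Chrna4 it was iKO 3, highest at 2.66 CPM (0.647), which is also the library with the highest pituitary marker level. For Chrna7 it was iKO 4, highest at 48.0 CPM (0.627).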

How the results depend on the processing

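Chrna6 kept its direction and its call in 23 of 23 alternatives, at log2 fold changes of 0.87 to 0.97. Chrna7 kept its call in 22 of 23, at -0.57 to -0.42, and lost it in males only. Chrnb3 was called in 9 of 23, at 0.37 to 0.52, and Chrnb4 in 4 of 23, at -1.29 to -0.96, namely without a filter on low counts, with DESeq2, without control 6 and in tamoxifen-injected animals only. Chrna3, Chrna4 and Chrna10 were called in 0 alternatives, with negative fold changes in all of them, and Chrnb2, at -0.01 to 0.08, had a positive value in 21 of 23.

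Of the subunits, 2 were called higher, against 1 in tamoxifen-injected animals only, 1 in males only, 1 without control 6, iKO 5 and iKO 6 together (chosen after seeing the data) and 1 to 2 with 1 library left out. 1 subunit was called lower, against 2 without a filter, 2 with DESeq2, 2 in tamoxifen-injected animals, 0 in males only and 1 to 2 with 1 library left out. Of the genes of the other lists 2 were called higher, against 5 without a filter, 5 with DESeq2, 0 in males only and 1 to 2 with 1 library left out, and 2 lower, against 4 without a filter, 6 with DESeq2, 1 without control 6, iKO 5 and iKO 6, 1 in tamoxifen-injected animals, 0 in males only and 1 to 3 with 1 library left out. With a replicate block 1 subunit was called higher, and 1 higher and 0 lower in the other lists. Over all genes 63 were called, 15 with the replicate block, 332 with DESeq2, 28 in tamoxifen-injected animals, 21 without the 3 libraries and 1 in males only. The cause was not tested; the subsets hold fewer animals. Replicate numbers did not pair the libraries: deviations of same-numbered libraries correlated at -0.41 to 0.29, and 1 of 6 matched its own number best.

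Counts of subunits past the threshold in the differences between replicate sets, sexes and control sets, and of pairs past it in the correlations, were 0 in each alternative run. Counting error limits Chrna5 and Chrna10, whose summed counts were under 100 in each group.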
